A study of Mus musculus with 6 samples.

Results

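The genes described here are 35 genes of cholesterol metabolism among 49671 genes counted in cultures of mouse induced renal epithelial cells. They were chosen by symbol, through their Ensembl identifiers, and fall into 3 arms: 19 enzymes of cholesterol synthesis, 10 genes of SREBP control and uptake, and 6 genes of export and the LXR response. RNA came from confluent cultures in 6 libraries, 3 per group. The Cre cultures of clones 4, 7 and 21 were transduced with Cre recombinase and are labelled Pkd1 knockout (Pkd1 -/-). The Flp cultures of the same clones were transduced with Flp recombinase and are labelled Pkd1 wild type (Pkd1 fl/fl). All 6 cultures derive from the strain B6.129S4-Pkd1tm2Ggg/J and share a medium with fetal bovine serum, which itself carries lipoprotein cholesterol. Induced renal epithelial cells start as fibroblasts and take on tubule features when kidney transcription factors are supplied, and each line is 1 clone. Separate animals are not named as the source of the clones, so the p-values cover the spread between these clone pairs, which may be technical.

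Cells make cholesterol from acetyl-CoA, first through mevalonate to squalene and then through lanosterol and a series of sterols. When cholesterol in the endoplasmic reticulum is low, SCAP carries the SREBP transcription factors to the Golgi, where they are cleaved and then switch on the genes of the synthesis enzymes and those of INSIG1 and STARD4. When sterols are plentiful, INSIG proteins hold SCAP back, and oxysterols activate the LXR receptors, which raise the exporters ABCA1 and ABCG1 and the ubiquitin ligase MYLIP. Cells also take cholesterol up from lipoproteins and release it from lysosomes. These are textbook relations, in which the synthesis and export arms are expected to go in opposite directions when cell sterol changes.

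Promoter sequence shows what the synthesis genes share before any level is considered. RefSeq promoters (GRCm38.p6) were found for 28 of the 35 genes, and each was read as the 250 bases before the annotated start. The CCAAT pentamer, the site of NF-Y, a factor known to act beside SREBP, was searched as CCAAT on both strands. It was present in 15 of 16 synthesis genes, 6 of 7 control and uptake genes and 2 of 5 export genes, against 4310 of the 10760 genes tested here that had a promoter. The GC box CCGCCC, a site of Sp1, was in 15 of 16 synthesis genes, 6 of 7 control and uptake genes and 2 of 5 export genes. It was in 63.0% of those 10760 genes. The sterol regulatory element, searched as TCACNCCAC on both strands, was in 1 of 28 genes, Hmgcs1. It was in 1.3% of those 10760 genes and in 1.05% of all 32851 promoters of this length. The LXR element, searched as AGGTCA repeated after NNNN on both strands, was in none of the 28 genes and in 0.0152% of those promoters. These exact letters were also in 0 of the 10760 tested genes, so the search could not tell the members from other genes. The promoters of 3 synthesis genes and 1 export gene are shown for contrast, 5′ to 3′ on the strand of the gene, with matches to TCACNCCAC and CCAAT in either orientation in capitals. Hmgcs1 (chr13:119690101-119690350, plus strand) holds the sterol element and 3 CCAAT matches, Mvk (chr5:114444019-114444268, plus strand) 5 CCAAT matches, Nsdhl (chrX:72918271-72918520, plus strand) 2, and Abca1 (chr4:53159896-53160145, minus strand) none. The 4 were picked after their matches were seen, and a match is a run of letters, not a shown binding site. Variants of the letters were not searched, so a promoter without a match may still hold a site.
Hmgcs1: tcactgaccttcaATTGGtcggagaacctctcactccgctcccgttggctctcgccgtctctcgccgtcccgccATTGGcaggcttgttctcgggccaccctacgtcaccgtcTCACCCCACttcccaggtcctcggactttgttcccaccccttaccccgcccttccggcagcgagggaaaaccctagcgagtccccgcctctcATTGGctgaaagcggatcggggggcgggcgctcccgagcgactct
Mvk: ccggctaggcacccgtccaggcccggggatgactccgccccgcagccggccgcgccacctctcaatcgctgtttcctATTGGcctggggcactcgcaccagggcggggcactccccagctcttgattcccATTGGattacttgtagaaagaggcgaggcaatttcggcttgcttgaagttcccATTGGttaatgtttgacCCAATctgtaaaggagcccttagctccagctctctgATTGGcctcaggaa
Nsdhl: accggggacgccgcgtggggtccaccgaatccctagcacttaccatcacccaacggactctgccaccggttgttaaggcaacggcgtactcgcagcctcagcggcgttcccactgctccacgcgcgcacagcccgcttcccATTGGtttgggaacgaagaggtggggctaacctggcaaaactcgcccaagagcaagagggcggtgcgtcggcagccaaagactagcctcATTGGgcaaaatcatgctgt
Abca1: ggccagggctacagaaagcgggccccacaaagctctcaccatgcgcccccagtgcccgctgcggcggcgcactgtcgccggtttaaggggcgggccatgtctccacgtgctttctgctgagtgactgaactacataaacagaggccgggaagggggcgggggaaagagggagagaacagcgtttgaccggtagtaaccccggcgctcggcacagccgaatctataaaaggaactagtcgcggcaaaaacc

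Total gene counts were 29451753 to 46918341 in Cre and 25196120 to 40274665 in Flp, with more counts in Cre than in Flp for clones 4 and 21 and fewer for clone 7. Levels are given as CPM, read counts scaled to the size of each library. Where a gene had no reads, its level could be as high as 0.0632 to 0.121 CPM, by counting error alone. Pkd1 itself, counted over the whole gene and so including exons outside the floxed part, was at 145, 105 and 118 CPM in Cre clones 4, 7 and 21, against 199, 229 and 166 CPM in the Flp cultures of those clones. Its exons overlap Tsc2 on the opposite strand. The 10 kidney epithelial markers summed to 5569 to 6905 CPM in Cre and 5914 to 7158 CPM in Flp, and the 10 fibroblast markers to 13.5 to 22.6 CPM in Cre and 6.57 to 35.1 CPM in Flp, with Thy1 at 0 in every library. The 6 liver markers summed to 57.6 to 108 CPM in Cre and 59.4 to 1444 CPM in Flp. Most of the highest sum was Afp, the alpha-fetoprotein gene, at 1361 CPM in Flp clone 21 and 35.5 to 191 CPM in the other 5 libraries. Of 6 adipocyte, 6 macrophage and 5 steroidogenic markers, 1, 3 and 1 were measured, with Adgre1 at 0. The macrophage sum was 239 to 326 CPM in Cre and 175 to 244 CPM in Flp, most of it from Csf1r and Cd14. Flp clone 21 was also the highest library for 8 of 19 synthesis enzymes, and the part of the cells marked by Afp was not tested. In bulk RNA, fewer cells of a type and less RNA per cell cannot be told apart.

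The main comparison asked whether the 3 arms differed between Cre and Flp when each clone was its own control. Most synthesis enzymes had lower values in Cre: 18 of 19 had a log2 fold change below 0, the median was -0.46, and 13 were lower in every clone. The genes of SREBP control and uptake had a median of -0.17 over 10 members, led by Insig1 at -0.50. The 5 measured genes of export and LXR had a median of -0.17 and lay on both sides of 0. Abca1 and Nr1h3 stood at 0.32 and 0.40, and Soat1 at -0.80. No member passed edgeR's quasi-likelihood test with clone as a block and Benjamini-Hochberg adjustment over 15355 genes. That fit called 0% of all genes at an adjusted p under 0.05, and the members' adjusted p ran from 0.6172 to 0.9901. DESeq2 with the clone block called none of the members either, and 1.44% of all genes. All differences below are therefore values, not calls.

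Of the 35 members, 34 passed the filter on low counts, and Abcg1 did not. Exons of 12 members overlap another gene in the annotation, which leaves their counts uncertain. At an unadjusted p under 0.05, 12 members were lower and 2 higher in Cre, where 3.28% of all genes tested were lower and 3.54% higher. Log2 ratios were below 0 in every clone for 19 of the 34 members and above 0 in every clone for 2, against 13.1% and 14.6% of all genes. Every Cre library lay below every Flp library for 10 members, 8 of them synthesis enzymes, against 3.95% of all genes, and above every Flp library for 0, against 4.19%. Without clone 21 only 1 member, Soat1, was lower at an unadjusted p under 0.05, and the synthesis median was -0.31. Soat1 is not among the 12, so none of those 12 was below that p without clone 21, while 16 of 19 synthesis enzymes had a value below 0 without it. The fit without clone 21 has fewer libraries and residual degrees of freedom, and its share of all genes under that p was not counted. The part of the smaller number of libraries in that drop was not tested. The median log2 fold change of all genes tested was 0.0033.

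**Figure D1:**
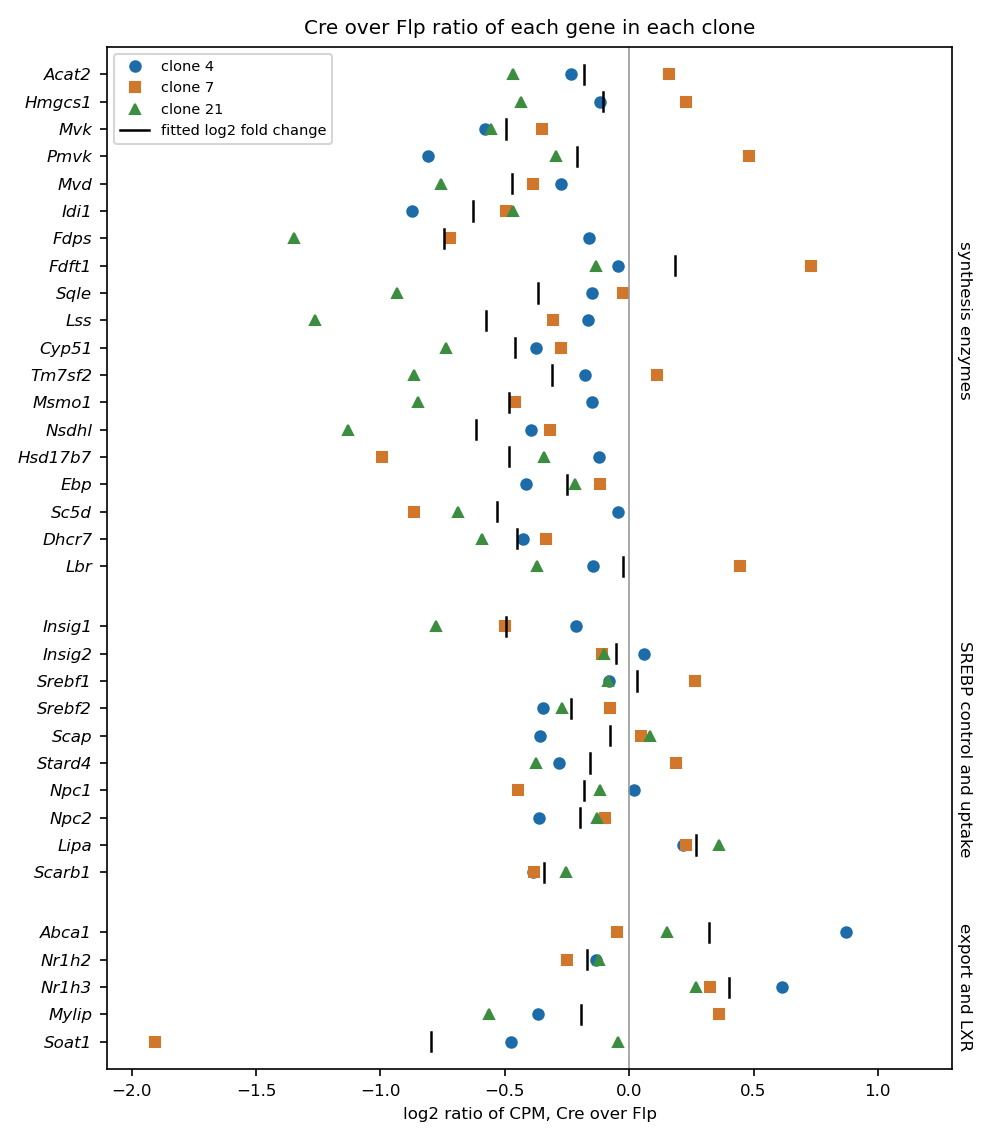
Log2 ratio of CPM, Cre over Flp, for the 34 measured genes (rows) in clones 4, 7 and 21 (symbols), with the fitted log2 fold change as a black bar. In clones 4 and 21 all 19 synthesis enzymes lie below 0, while in clone 7 only 13 do, and Soat1 in clone 7 is the farthest point at -1.91.

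Of the first steps, from acetyl-CoA to mevalonate, Acat2 and Hmgcs1 are members, and both had clone ratios on both sides of 0. HMG-CoA reductase, which makes mevalonate, is not among the members. Hmgcs1 (chromosome 13, 119690379 to 119708260, GRCm38), the HMG-CoA synthase, was at 277, 328 and 292 CPM in Cre clones 4, 7 and 21, against 300.4, 279.6 and 394 CPM in the Flp cultures of those clones. The groups overlapped, and the clone ratios were -0.12, 0.23 and -0.43 on the log2 scale, so clone 7 went against the other clones. Acat2, the thiolase that makes acetoacetyl-CoA, had clone ratios of -0.24, 0.16 and -0.47 and a log2 fold change of -0.18 (SE 0.16). Acat2 lies beside its paralog Acat3, so its counts may be split between copies. Per length, Hmgcs1 was the most abundant synthesis enzyme, at 65.1 ± 5.72 CPM per kilobase in Cre and 70.7 ± 13.3 in Flp (SD, n = 3).

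From mevalonate to farnesyl diphosphate all 5 genes had a fitted value below 0. Mvd, the mevalonate diphosphate decarboxylase, was at 49.5, 39.5 and 29.7 CPM in Cre, against 59.9, 51.6 and 50.1 CPM in Flp, in the order of clones 4, 7 and 21. Its groups did not overlap, its log2 fold change was -0.47 (SE 0.14), and its edgeR adjusted p was 0.6403. Mvk, mevalonate kinase, was at 17.7, 14.1 and 11.5 CPM in Cre, against 26.4, 18.0 and 17.0 CPM in Flp, lower in Cre of each clone although the groups overlapped, with a log2 fold change of -0.50 (SE 0.16). Pmvk, the kinase of the next step, was mixed, with clone ratios of -0.81, 0.48 and -0.29. Idi1, the isopentenyl diphosphate isomerase, was scarce at 1.87, 1.82 and 1.94 CPM in Cre, against 3.47, 2.59 and 2.70 CPM in Flp, with all 3 Cre libraries the lowest. Its log2 fold change was -0.63 (SE 0.30). Fdps, the farnesyl diphosphate synthase, was at 24.3, 15.0 and 13.1 CPM in Cre, against 27.3, 24.8 and 33.5 CPM in Flp, lower in Cre in each clone and most of all in clone 21, at a log2 ratio of -1.35. Its log2 fold change of -0.74 (SE 0.25) was the lowest of the 19 enzymes. Fdps exons overlap those of Gm43738 on the same strand, and the authors' deposited table lists a mean normalised count 2.99 times that of the count files, so the level depends on the source.

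Squalene and its cyclisation came next. Sqle, squalene epoxidase and a slow step of the pathway, was at 117, 107 and 78.8 CPM in Cre, against 129, 109 and 151 CPM in Flp. Clone 21 carried nearly all of its difference, with clone ratios of -0.15, -0.024 and -0.93 and a log2 fold change of -0.37 (SE 0.19). Lss, lanosterol synthase, was at 100.01, 62.4 and 54.9 CPM in Cre, against 112, 77.2 and 132 CPM in Flp, with ratios of -0.16, -0.31 and -1.26. In Lss too the Flp culture of clone 21 was the highest library and its Cre culture the lowest.

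**Figure D2:**
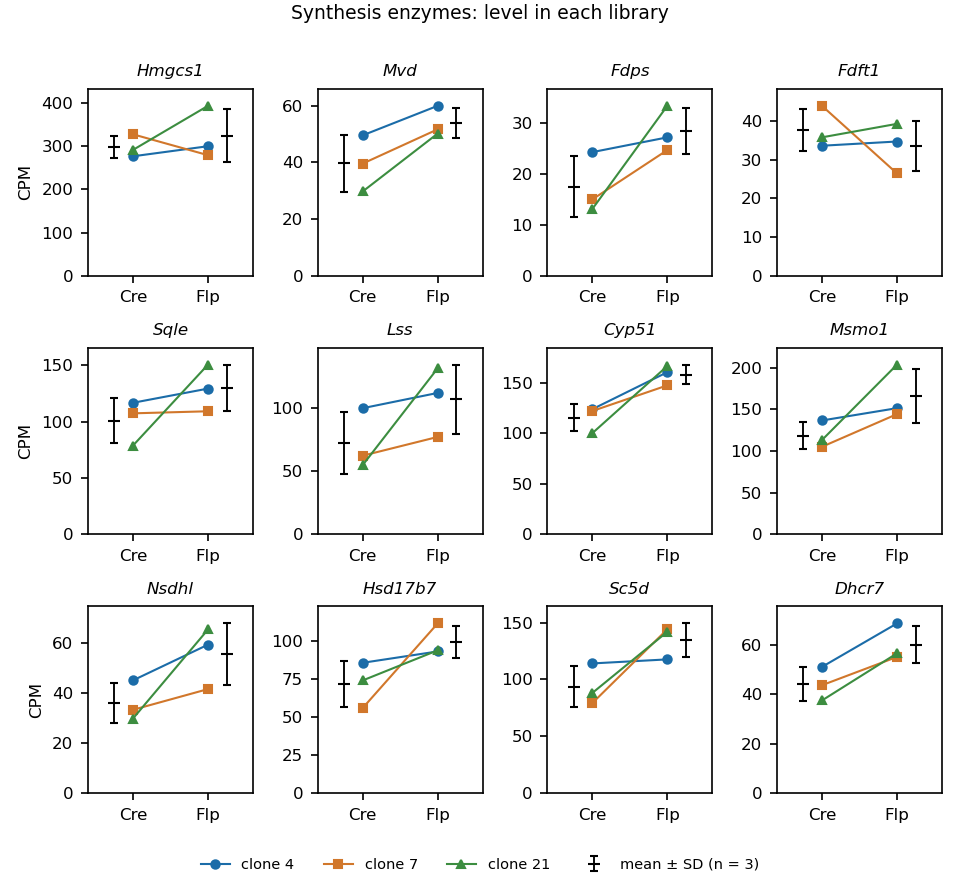
CPM of 12 synthesis enzymes in each library, Cre left and Flp right, with a line joining the cultures of a clone and the mean ± SD of 3 beside each group. Lines slope up to Flp in every clone for all genes drawn except Hmgcs1 and Fdft1, whose lines slope down in clone 7.

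The enzymes from lanosterol to cholesterol came last, and among them Cyp51, Msmo1, Hsd17b7, Sc5d and Dhcr7 had no overlap between the groups. Dhcr7 (chromosome 7, 143823145 to 143848410), which makes cholesterol from 7-dehydrocholesterol, was at 51.0, 43.6 and 37.5 CPM in Cre, against 68.6, 55.0 and 56.5 CPM in Flp. All 3 Cre libraries lay below all 3 Flp libraries, and the log2 fold change was -0.45 (SE 0.12). Its log2 ratios by clone were -0.43, -0.34 and -0.59. It had the smallest p of the 34 members tested, and its edgeR adjusted p was 0.6172. Cyp51, the lanosterol demethylase, was at 124, 122 and 100.2 CPM in Cre, against 161, 148 and 167 CPM in Flp, again with no overlap, at a log2 fold change of -0.46 (SE 0.13). A stretch of Cyp51 exons overlaps Akap9 on the opposite strand. Msmo1, the methyl sterol oxidase, was at 137, 105 and 113 CPM in Cre, against 151, 144 and 204 CPM in Flp, and Sc5d, the sterol desaturase, was at 114, 79.2 and 88.1 CPM in Cre, against 118, 144 and 142 CPM in Flp. Both had Cre below Flp in every library, but in clone 4 the log2 ratios were only -0.15 for Msmo1 and -0.044 for Sc5d.

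Nsdhl and Hsd17b7 act with Msmo1 to remove the methyl groups at carbon 4. Nsdhl had clone ratios of -0.40, -0.32 and -1.13 and a log2 fold change of -0.62 (SE 0.19). Hsd17b7 was at 85.7, 56.0 and 74.1 CPM in Cre, against 93.2, 112 and 93.9 CPM in Flp, with no overlap and a log2 fold change of -0.48 (SE 0.18). Clone 7 held the largest difference of Hsd17b7, and clone 21 that of Nsdhl. The isomerase Ebp stood at -0.25 (SE 0.12), lower in each clone. Tm7sf2 and Lbr are both sterol C14 reductases, and Lbr is also the lamin B receptor of the inner nuclear membrane. Tm7sf2 had clone ratios of -0.18, 0.11 and -0.87 and Lbr of -0.14, 0.44 and -0.37, and their fitted log2 fold changes were -0.31 and -0.024. Both were above 0 in clone 7, as were Acat2, Hmgcs1 and Pmvk.

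The clones differed in which culture departed. Against each gene's mean log2 CPM over the 6 libraries, the median of the synthesis enzymes stood at -0.0021, -0.21 and -0.40 in Cre clones 4, 7 and 21, against 0.31, 0.053 and 0.28 in Flp. Cre clone 21 held the lowest level of the 6 libraries for 12 of 19 enzymes. Flp clone 4 and Flp clone 21 each held the highest for 8. Cell cycle genes, as a check of growth, had another order: their median clone ratios were -0.40, 0.62 and -0.33 over 20 genes in clones 4, 7 and 21. All 20 were below 0 in clones 4 and 21 and above 0 in clone 7. Acat2, Hmgcs1, Pmvk, Tm7sf2, Lbr, Fdft1, Stard4, Srebf1 and Mylip had that same order of signs, and the part of growth in their values was not tested. In clones 4 and 21 all 19 synthesis enzymes were below 0. In clone 7 it was 13 of 19, where 7583 of the 15355 genes tested were below 0.

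Fdft1, squalene synthase, was the synthesis gene with a log2 fold change above 0, at 0.18 (SE 0.20). It was at 33.6, 43.9 and 35.8 CPM in Cre, against 34.7, 26.4 and 39.3 CPM in Flp, and only clone 7 was higher in Cre, at a log2 ratio of 0.73. Fdft1 lies on chromosome 14 (63145150 to 63179578), where neighbouring genes were higher in Cre of clones 7 and 21. Within 10 Mb of its start lay 143 genes whose mean reached 1 CPM, and their median log2 ratios were 0.033, 0.90 and 0.75 in clones 4, 7 and 21. Set against those medians, Fdft1 stood at -0.079, -0.17 and -0.88. In clone 21 only 4 of the 143 neighbours had a lower ratio than Fdft1, against 43 in clone 7 and 50 in clone 4. Part of the Fdft1 exons overlap Ctsb on the opposite strand. For the other 34 members, median ratios of the genes within 10 Mb lay between -0.14 and 0.28 in every clone, so Fdft1 was the only member in such a stretch. The 0.28 belonged to the neighbours of Cyp51 in clone 4, where Cyp51 itself stood at -0.37.

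**Figure D3:**
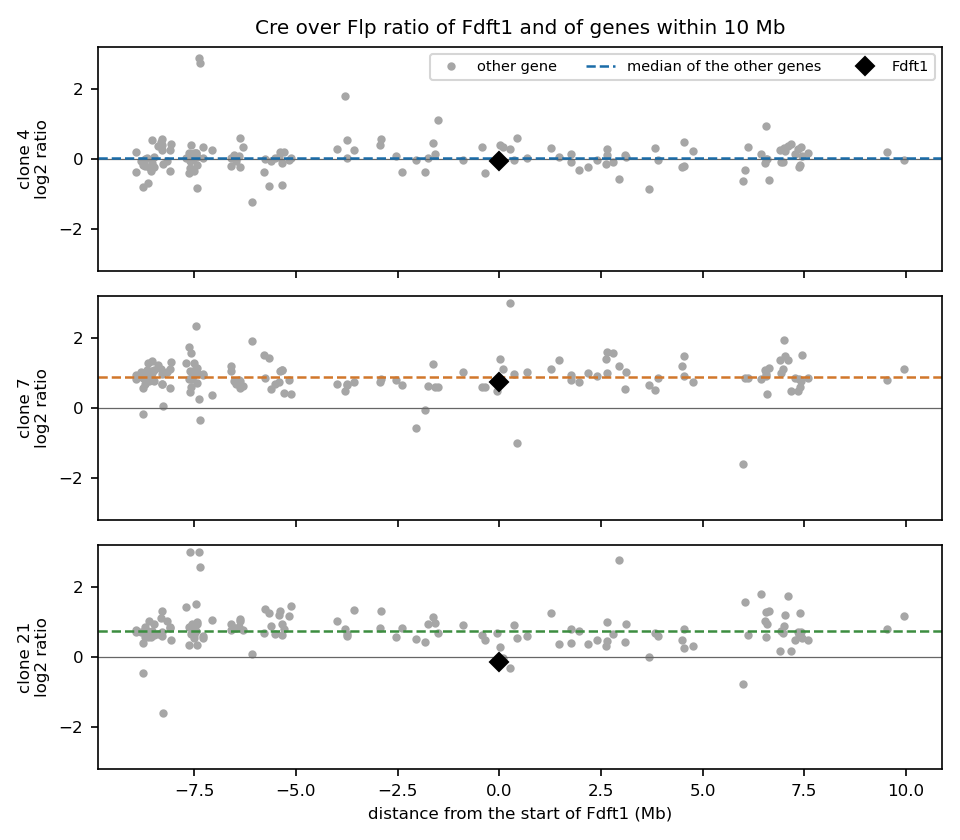
Log2 ratio of CPM, Cre over Flp, of Fdft1 (diamond) and of 143 genes within 10 Mb (grey), against the distance from the start of Fdft1 in Mb, 1 panel per clone. Ratios past 3 in size, found in 3 genes, are drawn at that limit. The dashed median is at 0.033, 0.90 and 0.75 in clones 4, 7 and 21, and Fdft1 falls below it by 0.88 in clone 21.

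Among the genes that control SREBP, Insig1 stood apart from its partners. Insig1 (chromosome 5, 28071363 to 28078662), an SREBP target that retains SCAP in the endoplasmic reticulum, was at 88.0, 63.1 and 53.6 CPM in Cre clones 4, 7 and 21, against 102, 89.2 and 91.8 CPM in the Flp cultures of those clones. Its groups did not overlap, and its log2 fold change of -0.50 (SE 0.14) was close to the synthesis median of -0.46. Its clone ratios of -0.21, -0.50 and -0.78 were ordered like the synthesis medians of -0.18, -0.31 and -0.59. Insig2, the second retention protein, was at 41.3, 35.6 and 43.0 CPM in Cre, against 39.6, 38.4 and 46.1 CPM in Flp, with overlapping groups and a log2 fold change of -0.051 (SE 0.12). Per length, Insig1 was at 22.1 ± 5.75 CPM per kilobase in Cre and 30.5 ± 2.18 in Flp, and Insig2 at 11.5 ± 1.11 CPM per kilobase in Cre and 11.9 ± 1.19 in Flp (SD, n = 3).

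The transcription factors and their escort showed smaller differences. Srebf2, the main factor of the cholesterol genes, was at 557, 524 and 414 CPM in Cre, against 708, 554 and 499.8 CPM in Flp, lower in Cre of each clone with overlapping groups, at a log2 fold change of -0.23 (SE 0.11). Srebf1, whose products act more on fatty acid genes, was at 287, 342 and 222 CPM in Cre, against 304, 284 and 236 CPM in Flp. Its log2 fold change was 0.033 (SE 0.12), with Cre above Flp in clone 7. Per length, Srebf2 was at 69.4 ± 10.4 CPM per kilobase in Cre and 81.7 ± 15.1 in Flp, above Srebf1 at 50.4 ± 10.6 CPM per kilobase in Cre and 48.8 ± 6.17 in Flp (SD, n = 3). Scap, the sterol sensor, was at 139.8, 168 and 139 CPM in Cre, against 179, 163 and 131 CPM in Flp, and only clone 4 was lower in Cre. Its log2 fold change was -0.076 (SE 0.13). Exons of Scap and Srebf1 overlap other genes, and without strand those reads cannot be told apart.

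The uptake and intracellular transfer genes among the members mostly had fitted values a little below 0, with Lipa the exception. The LDL receptor is not among the members. Scarb1, the receptor that takes cholesterol from high-density lipoprotein, was at 63.1, 49.5 and 51.6 CPM in Cre, against 82.6, 64.6 and 61.5 CPM in Flp. Its clone ratios were even at -0.39, -0.38 and -0.25, and its log2 fold change was -0.34 (SE 0.11). Lipa, the lysosomal acid lipase that frees cholesterol from its esters, was at 211, 305 and 272 CPM in Cre, against 182, 259.8 and 212 CPM in Flp. Lipa was higher in Cre in each clone, with a log2 fold change of 0.27 (SE 0.10) and an edgeR adjusted p of 0.6864. Npc2, which hands lysosomal cholesterol to NPC1, was at 259, 256 and 244 CPM in Cre, against 333, 274 and 267 CPM in Flp, with no overlap but a small log2 fold change of -0.20 (SE 0.11). Npc1, the membrane partner, was at 139, 107 and 124 CPM in Cre, against 137, 146 and 135 CPM in Flp, and clone 7 held the largest difference, at a log2 ratio of -0.45. Stard4, an SREBP target that carries cholesterol through the cytosol, was at 167, 217 and 195 CPM in Cre, against 204, 190.1 and 253 CPM in Flp. Its clone ratios were -0.28, 0.19 and -0.38, and the authors' deposited table lists a mean normalised count 0.611 times that of the count files.

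**Figure D4:**
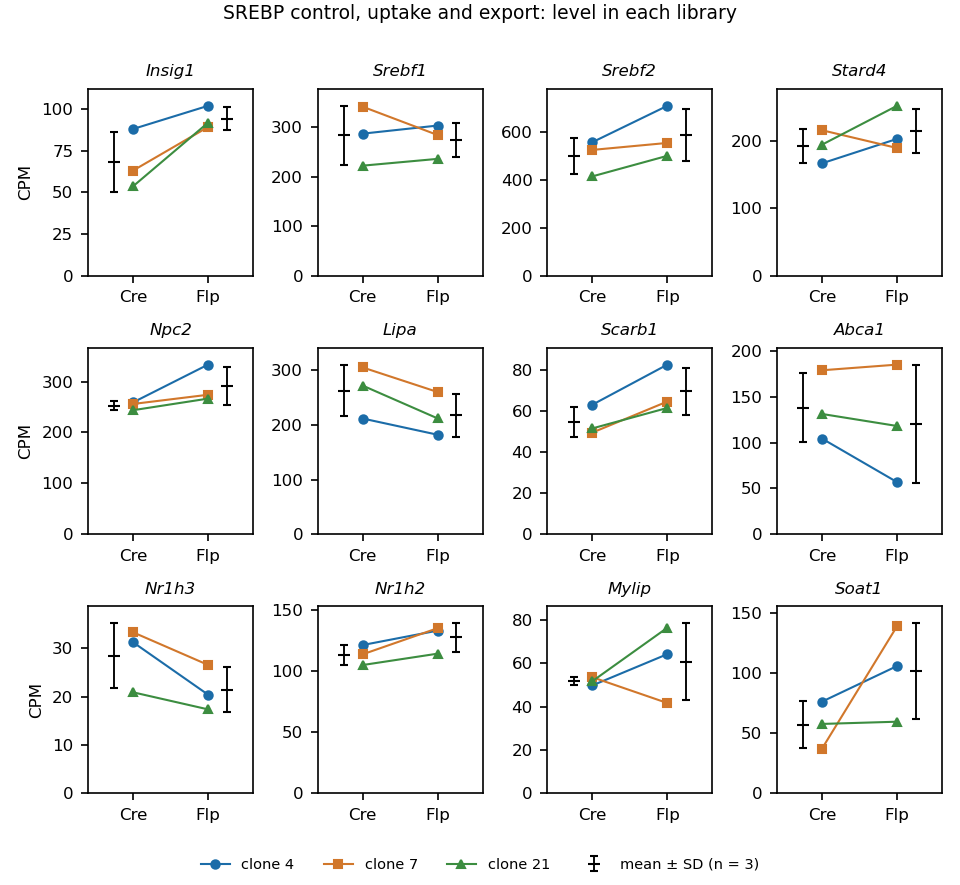
CPM of 12 genes of SREBP control, uptake and export in each library, Cre left and Flp right, with a line joining the cultures of a clone and the mean ± SD of 3 beside each group. Insig1, Srebf2, Npc2, Scarb1, Nr1h2 and Soat1 slope up to Flp in every clone, and Lipa and Nr1h3 slope down. Soat1 in clone 7 spans 37.1 CPM in Cre and 139 CPM in Flp.

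The export and LXR genes had values on both sides of 0. Abca1 (chromosome 4, 53030787 to 53159895), which loads cholesterol onto apolipoproteins, was at 104, 179 and 131 CPM in Cre clones 4, 7 and 21, against 57.0, 185 and 118 CPM in the Flp cultures of those clones. Clone 4 held the difference, with ratios of 0.87, -0.049 and 0.15 and a log2 fold change of 0.32 (SE 0.19). Clone 7 had the highest level in both groups. Abcg1, the exporter to high-density lipoprotein, had 10, 84 and 9 reads in Cre clones 4, 7 and 21, against 11, 7 and 5 reads in Flp. Cre clone 7 stood apart at 2.88 CPM, the other 5 libraries reached at most 0.444 CPM, and the gene was not tested.

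The receptor genes had values of opposite sign. Nr1h3, which encodes LXR alpha, was at 31.3, 33.4 and 20.9 CPM in Cre, against 20.4, 26.6 and 17.4 CPM in Flp, higher in Cre of each clone with overlapping groups. Its log2 fold change was 0.40 (SE 0.15) and its edgeR adjusted p 0.6864. Nr1h2, which encodes LXR beta, was at 121, 114 and 105 CPM in Cre, against 133, 135 and 114 CPM in Flp, with a log2 fold change of -0.17 (SE 0.098). Per length Nr1h2 was the more abundant, at 33.8 ± 2.44 CPM per kilobase in Cre and 38.0 ± 3.43 in Flp, against Nr1h3 at 11.3 ± 2.65 CPM per kilobase in Cre and 8.54 ± 1.87 in Flp (SD, n = 3). Mylip, which marks lipoprotein receptors for degradation, was at 49.7, 53.5 and 51.7 CPM in Cre, against 64.2, 41.6 and 76.4 CPM in Flp. Its clone ratios were -0.37, 0.36 and -0.56, and its Cre libraries were closer together than its Flp libraries.

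Soat1, which esterifies cholesterol for storage, had the widest clone difference of the 34 members tested. It was at 76.3, 37.1 and 57.7 CPM in Cre, against 106, 139 and 59.6 CPM in Flp. Clone ratios were -0.47, -1.91 and -0.046, so clone 7 made up most of the fitted -0.80 (SE 0.36). Soat1 was the only member to pass in any alternative, at an edgeR adjusted p of 0.0455 with library depth as a covariate. That fit was added after the data were seen and called 0.13% of genes lower in Cre. It has fewer residual degrees of freedom than the reported fit. Over all alternatives the adjusted p of Soat1 ran from 0.0455 to 0.999979. Without clone 7 its log2 fold change was -0.26. In the remaining alternatives no member passed.

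The order of the arm medians differed between clones. In clone 4 the medians of synthesis, control and uptake, and export were -0.18, -0.25 and -0.13. In clone 7 they were -0.31, -0.088 and -0.049, and in clone 21 -0.59, -0.12 and -0.046. Synthesis was the lowest arm in clones 7 and 21, and control and uptake in clone 4. The export median rests on 5 genes. It was -0.17 in the reported fit, beside -0.17 for control and uptake, and came to 0.20 without clone 21. With Abcg1 included in the setting without a filter it was 0.086. Each clone has 1 library per group, so differences between clones could not be tested.

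**Figure D5:**
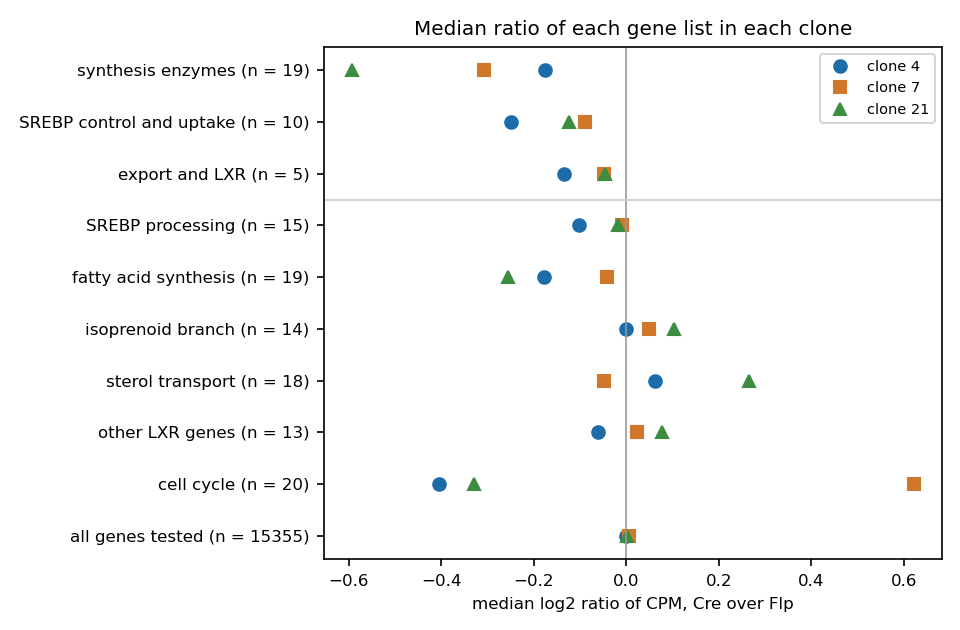
Median log2 ratio of CPM, Cre over Flp, of each gene list (rows) in clones 4, 7 and 21 (symbols), with the number of genes tested. The synthesis median is below 0 in every clone, lowest in clone 21 at -0.59, while cell cycle genes stand at -0.40, 0.62 and -0.33.

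Neighbouring pathways were set beside the 3 arms. Of 19 measured genes of fatty acid synthesis and related SREBP targets, 16 were below 0, with a median of -0.20. Of the 19, 7 were lower in every clone, where 13.1% of all genes tested were. Acsl3, an acyl-CoA synthetase, was at 51.3, 43.8 and 37.9 CPM in Cre, against 73.7, 54.8 and 72.4 CPM in Flp, a log2 fold change of -0.59 (SE 0.15), and had both the smallest p and the largest difference of that list. Its exons overlap Utp14b on the same strand. Clone medians of the list were -0.18, -0.042 and -0.26. The 15 genes of SREBP transport, cleavage and degradation had a median of -0.052 and a range of -0.22 to 0.042, with the protease gene Mbtps2 at -0.19 and Sec24d, of the vesicle coat, at -0.22. The isoprenoid branch, which uses farnesyl diphosphate for other products, had a median of -0.0082 over 14 genes, 7 above and 7 below 0. Its member Rabggta, a Rab prenyltransferase subunit at 0.69 (SE 0.19), is 1 of the 143 neighbours of Fdft1 on chromosome 14. Rabggta had clone ratios of 0.18, 1.14 and 0.75, beside neighbour medians of 0.033, 0.90 and 0.75.

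Sterol transport genes had a median of 0.056 over 18 genes, with 13 of them above 0. Of the 18, 8 were higher in every clone, where 14.6% of all genes tested were. Clone medians of the list were 0.062, -0.048 and 0.27 in clones 4, 7 and 21, with 10 of 18 below 0 in clone 7. Osbpl6, an oxysterol-binding protein relative, was at 1.49, 7.78 and 5.52 CPM in Cre, against 0.404, 3.55 and 1.88 CPM in Flp, and its fitted log2 difference was 1.48 (SE 0.31). Clones 4, 7 and 21 had log2 ratios of 1.75, 1.12 and 1.53. It missed the edgeR threshold at an adjusted p of 0.6065 and passed DESeq2 with the clone block at 0.0272, where 1.44% of genes passed. The 13 further genes of the LXR system had a median of -0.0069, with Abca7 at -0.41 and Abca5 at -0.92. Of 8 oxysterol genes 4 were measured, all with a fitted value above 0, but only 2 were higher in every clone. Those 2, Cyp27a1 and Sult2b1, were also the only ones with a mean of at least 1 CPM. Cyp27a1, the sterol 27-hydroxylase, was at 19.4, 19.3 and 8.62 CPM in Cre, against 9.29, 19.3 and 6.72 CPM in Flp. In clone 7 its log2 ratio was 0.0036. Sult2b1 had a log2 fold change of 0.60. No gene of these 6 lists passed edgeR's adjusted threshold with the filter on low counts, and without the filter Osbpl6 and Rabggta did.

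The authors' deposited table lists all 35 members, with 0 at an adjusted p under 0.05, where 1.37% of the genes with an adjusted p passed. The same authors' deposited table has 13 members lower and 2 higher at an unadjusted p under 0.05, against 2.9% and 3.12% of all genes there. Its fold changes have the sign of the Cre over Flp values given here in 95.6% of 12823 shared genes. Both rest on the same libraries.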

How the data were processed

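RNA of 3 Cre and 3 Flp cultures was sequenced. The submitters' processing notes name featureCounts 1.6.0.3, STAR 2.5.2b-2, Trim Galore 0.4.3.0 and DESeq2 2.11.40.1, without their order. For strand setting and annotation release, the sources used here give nothing. For each Ensembl gene the authors deposited a raw count. Per the file headers, the authors' deposited table holds a mean normalised signal, a log2 fold change, its standard error and Wald statistic (a score), and p-values.

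Symbols and coordinates came from GENCODE M21 on GRCm38 (259 of 49671 identifiers had no entry). In R 4.3.3, edgeR 4.0.16 was used with filterByExpr, TMM factors, clone as a block and 2 residual degrees of freedom, adjusting by Benjamini-Hochberg at 0.05. CPM used TMM-scaled library sizes, log2 ratios a prior count of 2, and SEs the F statistic. CPM per kilobase used the merged exon length. The tests were checked on simulated data. Alternatives used limma 3.58.1 (voom), DESeq2 1.42.0, 2 normalizations, 2 filters, no block and leaving out each clone. Figures used matplotlib 3.10.9.

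The block follows the series' design. Same-clone libraries had correlated deviations from their group means, 0.202, 0.115 and 0.304 in clones 4, 7 and 21, against -0.268 to 0.0233 between clones. Deviations from a group mean cancel within the group, so the between-clone values are not independent of the same-clone values. Members, lists and tests were chosen with earlier results of these data known. All members are named, with library values for a set listed by role and for the smallest p and largest difference of each arm. The 6 pathway lists give those last 2 genes where the mean CPM reached 1, and the marker and cell cycle lists only sums, medians or single markers. Library values of Mvd, Mvk, Sc5d, Hsd17b7, Lipa, Npc2 and the marker genes were added after they were seen. Lipa and Scarb1 were placed with uptake, and Soat1 with export.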

Additional observations from a re-analysis of the deposited data

Results flagged for a closer look

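In 7 members clone 7 went against clones 4 and 21, with a log2 ratio of at least 0.1 in size in every clone. The clone 7 ratios were 0.16 for Acat2, 0.23 for Hmgcs1, 0.48 for Pmvk, 0.11 for Tm7sf2, 0.44 for Lbr, 0.19 for Stard4 and 0.36 for Mylip, each below 0 in the other clones. Each clone has 1 Cre and 1 Flp library, so the difference between clones was not tested. Cell cycle genes had the same order of signs, with medians of -0.40, 0.62 and -0.33 in clones 4, 7 and 21. Library depth had the reverse order, with the Cre library deeper than the Flp library in clones 4 and 21 and shallower in clone 7. With depth as a covariate the fitted values of Hmgcs1, Pmvk, Lbr and Mylip changed sign, and the part of growth was not tested.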

How the results depend on the processing

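edgeR called 0 genes in the reported fit, 224 without the filter on low counts, 196 came from DESeq2 with the replicate block and 27 from edgeR with library depth as a covariate, a setting chosen after seeing the data. Members called were 0 throughout, except 1 with depth, Soat1, at -1.30. The count of members lower in Cre at an unadjusted p under 0.05, 12 in the reported fit, was 1 to 11 when a clone was left out, the 1, Soat1, without clone 21. The count of higher members, 2 in the reported fit (Lipa and Nr1h3), was 0 without the replicate block, 1 with depth (Fdft1) and 0 to 1 when a clone was left out (Abca1, without clone 7). Without the block no member's direction or call changed. The synthesis median stayed between -0.51 and -0.31 in every setting run. The export and LXR median, -0.17 in the reported fit, was 0.086 without the filter, 0.058 with depth and -0.13 to 0.20 when a clone was left out. Without the filter, which brings in Abcg1, the medians of clones 4, 7 and 21 were -0.23, 0.12 and 0.011. With depth, Hmgcs1, Pmvk, Lbr and Mylip changed sign, to 0.047, 0.089, 0.19 and 0.058. When a clone was left out, log2 fold changes ran from -0.27 to 0.054 for Hmgcs1, -0.55 to 0.094 for Pmvk, -0.089 to 0.34 for Fdft1, -0.26 to 0.15 for Lbr, -0.082 to 0.089 for Srebf1 and -0.16 to 0.065 for Scap. With 4 libraries left, such fits have few residual degrees of freedom, and the fit with depth has fewer than the reported fit. The share of all genes at an unadjusted p under 0.05 was counted only in the reported fit and the authors' deposited table. The causes of these changes were not tested.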
